A study of Mus musculus with 9 samples.

Results

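The OAS family of the mouse was described here by 8 genes, Oas1a, Oas1b, Oas1c, Oas1g, Oas2, Oas3, Oasl1 and Oasl2, out of 52780 genes in the count table. The 8 genes were selected on their counts in the comparison of si mH2A1.1 with si Ctrl, so their values in that comparison are a description and carry no test. The annotation lists 4 further family genes in the files, Oas1d, Oas1e, Oas1f and Oas1h. The samples came from C2C12, an immortal mouse line of muscle precursors that can form myotubes, on day 4 of differentiation. All 9 samples were transfected repeatedly with siRNA at 10 nM. The siRNA was directed against the macroH2A1.1 splice isoform of the histone variant macroH2A1 (si mH2A1.1), against the macroH2A1.2 isoform (si mH2A1.2), or was a control siRNA (si Ctrl, whose samples are labelled WT), with 3 samples each. C2C12 is 1 line, so the replicates are separate experiments on the same cells and not different animals.

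Oligoadenylate synthetases bind double-stranded RNA and join ATP into 2′-5′ linked oligoadenylates, the 2-5A messengers, which are known to limit the growth of viruses. The genes are known as interferon-stimulated genes, and their promoters are known for interferon-stimulated response elements (ISRE), which transcription factors bind in cells that have met interferon.

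All 12 family genes lie on chromosome 5 (GRCm38) at 2 places. The Oas1, Oas2 and Oas3 genes form a cluster of 10 genes from position 120730333 to 120921652, which spans 191 kb. Oasl2 and Oasl1 form a pair from 114896936 to 114937915. Oas1b and Oas1c are transcribed away from each other, and their annotated start sites are 121 bases apart. Oas1b is annotated as a polymorphic pseudogene.

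The sequences below show why the Oas1a and Oas1g values cannot be taken separately. The coding sequences of both genes are 1101 bases long and 96.7% identical, and the longest identical run between the transcripts is 526 bases. Of the 50-base windows of Oas1a, a length equal to that of the reads, 57.6% (1057 of 1836) also occur in Oas1g, and 45.2% of the windows of Oas1g occur in Oas1a. The first line gives a window that both genes hold, coding bases 222 to 271. The other lines give the window in which they differ most, coding bases 478 to 527, with the 16 differing bases in capitals.
Oas1a and Oas1g: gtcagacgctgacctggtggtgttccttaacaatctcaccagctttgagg
Oas1a: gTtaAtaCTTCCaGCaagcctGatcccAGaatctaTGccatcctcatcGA
Oas1g: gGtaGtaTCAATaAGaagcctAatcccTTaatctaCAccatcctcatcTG

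A read from the first window fits both genes, and a read from the last window fits 1 of them. The split of reads between Oas1a and Oas1g is therefore an estimate of the quantifier, and both genes are also given as a sum below. Of the other members, Oas1c shared 9.82% of its windows with another gene, Oas1b 2.78%, Oas3 0.31% and Oasl2 0.14%. Oas2 and Oasl1 shared none. Other genes on the opposite strand overlap the genomic span of Oas2 (Gm43068, 0 to 31 counts), Oasl1 (Gm13822, 0 to 1) and Oas1c (Gm43069, 0). On the opposite strand, no 50-base window of Oas2, Oasl1, Oas1a or Oas1g occurred in a transcript of another gene. Such windows made up 6.28% for Oas1c, 1.41% for Oas1b, 0.464% for Oas3 and 0.138% for Oasl2. The counting is not stated to use strand, so reads from these windows cannot be told from those of the other genes.

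**Figure D1:**
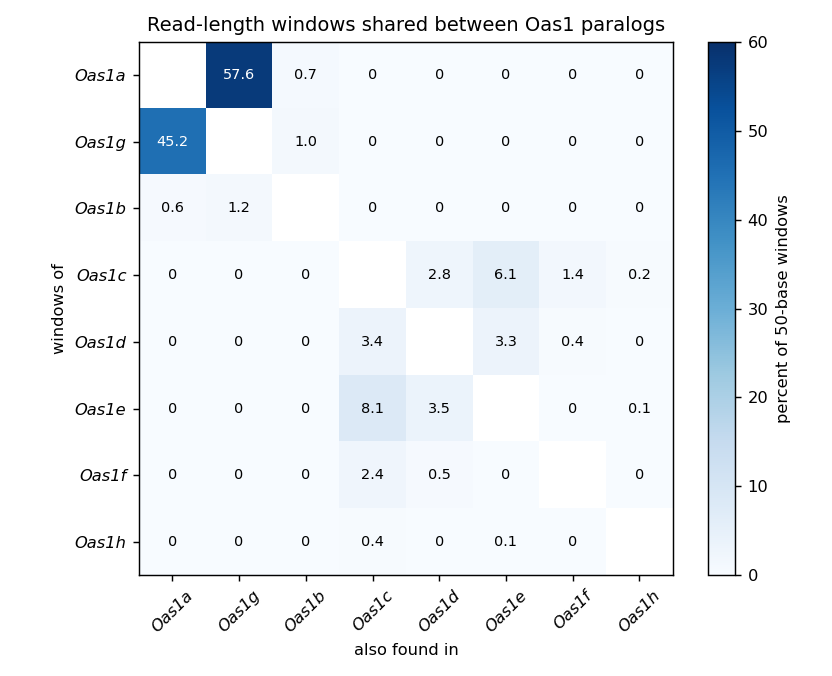
Percent of the 50-base windows of each Oas1 gene (rows) that also occur in another Oas1 gene (columns), from the annotated transcripts. Oas1a and Oas1g share 57.6% and 45.2% of their windows, and no other pair shares more than 8.06%.

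The next sequences show what the promoters of the members hold. Promoter windows of 300 bases, from RefSeq on GRCm38.p6, were found for 6 of the 8 members, Oas1a, Oas1c, Oas1g, Oas3, Oasl1 and Oasl2, and none for Oas1b and Oas2. The ISRE core GAAANNGAAA was searched on both strands, where N is any base, and adjacent matches may overlap. It occurred in 3.44% of all promoter windows (1131 of 32851) and in those of 4 of the 6 members. The 4 windows are printed on the strand of the gene, with the matched bases in capitals.
Oas1a, minus strand, chr5:120907476-120907775: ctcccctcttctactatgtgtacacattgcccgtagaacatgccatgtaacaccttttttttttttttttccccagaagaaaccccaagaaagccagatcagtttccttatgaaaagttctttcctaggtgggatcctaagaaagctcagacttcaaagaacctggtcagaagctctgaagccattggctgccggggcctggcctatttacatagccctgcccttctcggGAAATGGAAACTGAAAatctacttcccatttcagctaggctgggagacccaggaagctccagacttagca
Oas1g, minus strand, chr5:120887564-120887863: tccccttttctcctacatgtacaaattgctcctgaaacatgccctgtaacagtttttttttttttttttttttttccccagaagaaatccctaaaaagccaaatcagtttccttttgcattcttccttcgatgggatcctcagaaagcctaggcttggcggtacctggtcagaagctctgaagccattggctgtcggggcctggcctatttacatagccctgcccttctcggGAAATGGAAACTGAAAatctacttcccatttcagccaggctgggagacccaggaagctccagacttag
Oas1c, minus strand, chr5:120812465-120812764: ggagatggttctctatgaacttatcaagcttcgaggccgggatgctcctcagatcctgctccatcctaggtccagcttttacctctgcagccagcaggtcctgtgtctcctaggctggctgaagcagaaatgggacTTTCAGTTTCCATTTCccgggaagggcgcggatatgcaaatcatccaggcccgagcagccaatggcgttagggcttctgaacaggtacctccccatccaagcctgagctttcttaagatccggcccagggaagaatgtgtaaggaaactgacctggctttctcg
Oas3, minus strand, chr5:120777610-120777909: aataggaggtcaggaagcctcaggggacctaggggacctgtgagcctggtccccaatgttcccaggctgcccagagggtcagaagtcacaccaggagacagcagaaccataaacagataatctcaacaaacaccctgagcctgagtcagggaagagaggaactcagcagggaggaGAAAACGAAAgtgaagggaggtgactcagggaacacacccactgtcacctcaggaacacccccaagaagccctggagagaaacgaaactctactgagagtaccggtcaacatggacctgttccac

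Oas1a and Oas1g each held 2 overlapping matches, the first of them starting 20 and 18 bases before the start site. Oas1c held 2 overlapping matches on the other strand, which lie 7 to 22 bases before the annotated start of Oas1b. Oas3 held 1 match, 75 bases before its start. The windows of Oasl1 and Oasl2 held none. The GAS core TTCNNNGAA, found in 8.3% of all windows, occurred in that of Oas1a alone. A match describes the letters of these windows and was not tied to binding.

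Total counts ranged from 36924252 to 42223108 per library, so 3 counts, taken as the least that can be told from 0, correspond to about 0.0792 CPM in the si Ctrl libraries (CPM, the reads of a gene scaled to the size of its library). H2afy, which encodes both macroH2A1 isoforms, had 56.3, 62.4 and 61.0 CPM in si Ctrl, 38.8, 30 and 30.9 CPM in si mH2A1.1 and 46.8, 47.2 and 43.2 CPM in si mH2A1.2. Gene counts do not separate the isoforms, so this checks the knockdown of the gene and not of 1 isoform. The summed CPM of 10 skeletal muscle markers was 12960 to 17682 in si Ctrl, 12550 to 13287 in si mH2A1.1 and 11687 to 14225 in si mH2A1.2. With si mH2A1.1, edgeR called 0 of the 10 and DESeq2 0, while 4 had an unadjusted p under 0.05, and the libraries lay above si Ctrl for 2 markers (Des and Ckm) and below it for 2 (Myog and Myh3), which were named after their values were seen. With si mH2A1.2, edgeR called 0 of the 10 and DESeq2 1, and 4 had an unadjusted p under 0.05. The si mH2A1.2 libraries lay below si Ctrl for 4 markers and above it for 0. Fewer cells of a type and less RNA per cell cannot be told apart in these bulk samples.

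Every member was higher in each si mH2A1.1 library than in each si Ctrl library. Counts and CPM are given for replicates 1, 2 and 3 in this order, and the plot by library shows all of them. Ranges without overlap in this direction were found for 8 of 8 members and for 17.5% of all 19545 tested genes. The fitted difference was at least 0.8 on the log2 scale for the 8 members and for 7.35% of all tested genes. Nothing is read from these counts, since the members were selected on this comparison. Of the 8, 5 passed the filter on low counts through the si mH2A1.1 libraries alone, and only Oas1b, Oas3 and Oasl2 also had at least 10 counts in each of the other 6 libraries.

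**Figure D2:**
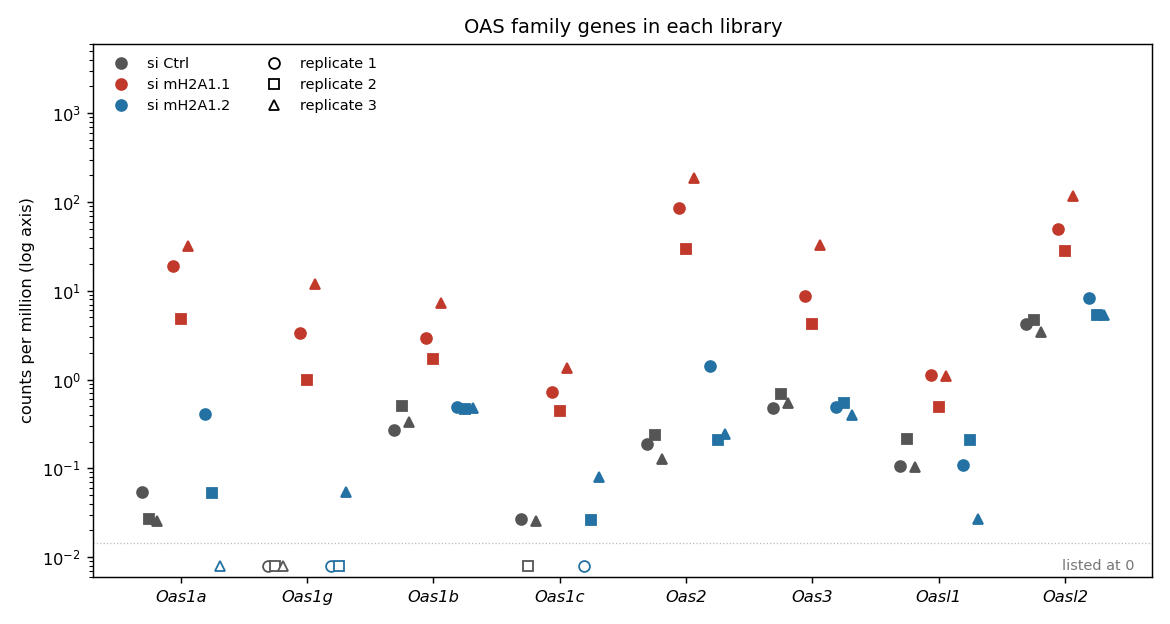
CPM of the 8 members (log axis) in each library, coloured by group, with the replicate number as symbol. Open symbols at the foot are libraries listed at 0. The si mH2A1.1 libraries lie above the si Ctrl libraries for every member, and those of si mH2A1.2 overlap si Ctrl for all members but Oasl2.

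Oas1a and Oas1g encode near-identical enzymes of the smallest OAS type, with a single catalytic unit. Oas1a had 2, 1 and 1 counts in si Ctrl and 776, 194 and 1369 counts in si mH2A1.1. The ratio of the rates was 534 (95% interval 208 to 1963, exact and for counting error only). Oas1g had 0 counts in each si Ctrl library and 136, 40 and 520 counts in si mH2A1.1, which is at least 68.7-fold higher against a floor of 3 counts per library. Both genes were close to absent in si Ctrl and present in every si mH2A1.1 library. The 2 genes together had 912, 234 and 1889 counts in si mH2A1.1 against 2, 1 and 1, and Oas1a took 85.1%, 82.9% and 72.5% of them.

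Oas1b and Oas1c are further Oas1 copies. The Oas1b copy of many laboratory strains is known to carry a premature stop, and the full-length form is known for resistance to flaviviruses. Oas1b had 10, 19 and 13 counts in si Ctrl and 120, 69 and 318 counts in si mH2A1.1, a fitted log2 difference of 3.43 (SE 0.52). It was the Oas1 gene with the highest level in si Ctrl. Oas1c had 1, 0 and 1 counts in si Ctrl and 29, 18 and 59 counts in si mH2A1.1, a ratio of 48.4 (95% counting interval 13.1 to 405). The 4 other Oas1 genes stayed near 0. Oas1e had 3, 1 and 4 counts in si mH2A1.1 and 0 elsewhere. Oas1h had 11 counts in si mH2A1.1 replicate 3 and 0 elsewhere. Oas1d and Oas1f had 1 count each in a single library. None of the 4 passed the filter on low counts.

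All 8 Oas1 genes summed gave 13, 20 and 15 counts in si Ctrl and 1064, 322 and 2282 counts in si mH2A1.1. The ratio of mean CPM was 68.5. This sum does not depend on how reads were split between the Oas1 genes.

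Oas2 and Oas3 encode the larger enzymes, built from repeated OAS units. Oas2 had 7, 9 and 5 counts in si Ctrl and 3429, 1185 and 8043 counts in si mH2A1.1. Its fitted log2 difference was 9.05 (SE 0.92), and it was the member with the most counts in si mH2A1.1. Oas3 had 18, 26 and 21 counts in si Ctrl and 350, 172 and 1407 counts in si mH2A1.1, a log2 difference of 4.72 (SE 0.7). Oas3 was thus measured in every library, and Oas2 was near the floor in si Ctrl.

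Oasl1 and Oasl2 are OAS-like genes, whose proteins carry ubiquitin-like domains. Oasl1 had 4, 8 and 4 counts in si Ctrl and 46, 20 and 47 counts in si mH2A1.1, a log2 difference of 2.66 (SE 0.54), the smallest of the 8. Oasl2 had 157, 177 and 133 counts in si Ctrl and 2027, 1135 and 5074 counts in si mH2A1.1, a log2 difference of 3.98 (SE 0.47). Oasl2 was the member with the most reads in si Ctrl, and it held 73.8% to 78.9% of the members' counts there.

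The order of the members by level changed between the groups. Levels between genes are given per length, as CPM per kb of exon, with the exons of all annotated transcripts of a gene merged. This length was 4451 bases for Oas2 and 6374 bases for Oasl2, and may differ from that of the transcripts present. In si Ctrl, Oasl2 was highest with 0.646 ± 0.102 (SD, n = 3), followed by Oas1b with 0.186 ± 0.0617 and Oas3 with 0.0809 ± 0.0154, and the ranges of the first 2 did not overlap with that of the next gene. Oasl1 and Oas2 came next, and the range of Oasl1 overlapped with those of both Oas3 and Oas2. In si mH2A1.1, Oas2 was highest with 22.4 ± 17.8, followed by Oasl2 with 10.2 ± 7.26 and Oas1a with 9.81 ± 7.1. The places of Oas1a and Oas1g in the order rest on the quantifier's split of their shared reads. The ranges of all neighbours in that order overlapped except those of Oas1b and Oas1c. Within each si mH2A1.1 library, however, Oas2 was above Oasl2 per length, by 2.42, 1.5 and 2.27 times, whereas the same ratio was 0.0638, 0.0728 and 0.0538 in si Ctrl. In si mH2A1.1 replicate 2 the CPM of Oas2 and Oasl2 were 29.3 and 28.0, so the ratio of 1.5 there comes mostly from the lengths.

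**Figure D3:**
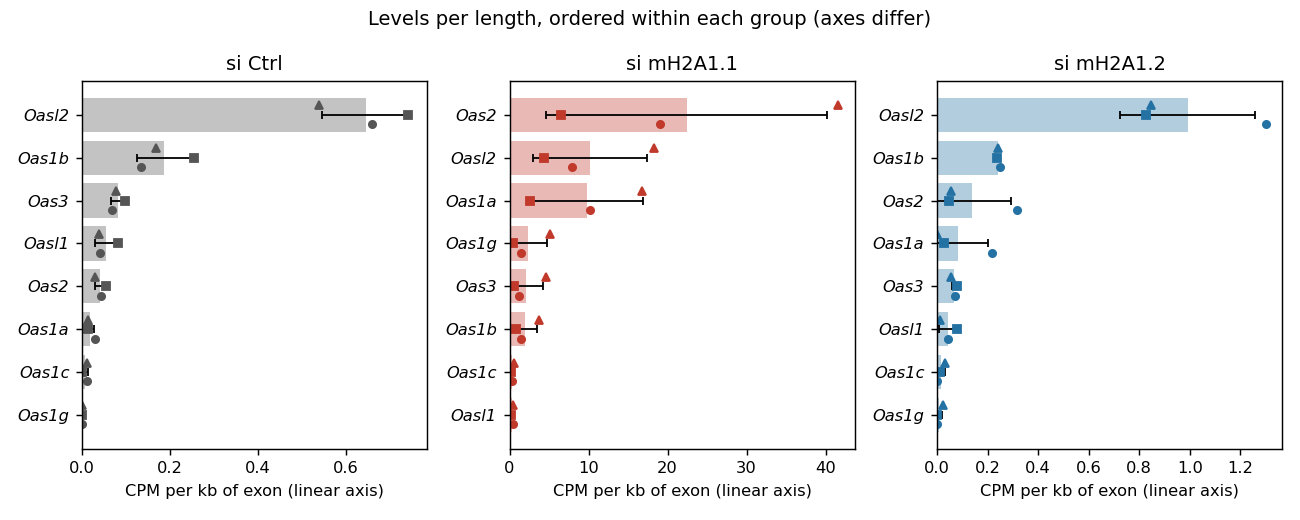
Mean level of each member in CPM per kb of exon (bars, linear axes that differ between the panels), with the SD of 3 libraries and each library as a symbol (circle, square and triangle for replicates 1, 2 and 3). Oasl2 leads in si Ctrl and si mH2A1.2, and Oas2 leads in si mH2A1.1.

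The si mH2A1.1 libraries differed from each other in the size of the rise. The members' CPM summed to 171, 70.0 and 388 in replicates 1, 2 and 3, and to 4.59 to 6.4 in si Ctrl. For 7 of the 8 members, replicate 3 was highest and replicate 2 lowest. Oasl1 was the exception, with 1.14 CPM in replicate 1 and 1.08 CPM in replicate 3. The ratio of replicate 3 to replicate 2 ran from 2.19 for Oasl1 to 7.63 for Oas3, with Oas1a and Oas1g taken as their sum, for which it was 7.53. Over 15389 genes with at least 0.5 CPM in these libraries, the median of this ratio was 0.999 and 90% of genes lay between 0.707 and 1.51. The same order of the libraries was found for 11.3% of all tested genes and for 35.7% of the 249 genes outside the family that were called higher with si mH2A1.1. It was not particular to the family, since all interferon effectors listed below had it, for example Ifit3 with 753, 391 and 2832 counts. H2afy was 38.8 CPM in replicate 1, 30 CPM in replicate 2 and 30.9 CPM in replicate 3, and its part in these differences was not tested.

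The comparison of si mH2A1.2 with si Ctrl was not used to choose the members, although it shares the si Ctrl samples with the comparison above. None of the 8 members passed the test of edgeR (adjusted p under 0.01 and a log2 difference of at least 0.8). The lowest adjusted p was 0.56, for Oas2, 0 of 8 had an unadjusted p under 0.05, and DESeq2 called 0. These p-values, and the SEs given below for si mH2A1.2, come from a fit of all 9 samples with 1 spread per gene. They therefore also carry the wide spread among the si mH2A1.1 libraries, which are not in this comparison. Oas1a, Oas1c, Oas1g, Oas2 and Oasl1 entered this test through their si mH2A1.1 libraries and were low in both groups compared, so for these a difference was hardly detectable. When only the si Ctrl and si mH2A1.2 libraries were fitted, Oas1b, Oas3 and Oasl2 were tested, 0 were called, and Oasl2 had an unadjusted p under 0.05 (edgeR adjusted p = 0.224). Of all tested genes, 0.179% (35 genes) were called in either direction, and 116 genes with a replicate block, under which no member was called. With 3 libraries against 3, an exact permutation test of a single gene cannot give a p below 0.1. A p above the threshold does not show that the levels were the same.

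Oasl2 was the 1 member of 8 whose 3 si mH2A1.2 libraries all lay above si Ctrl, with 8.29, 5.27 and 5.4 CPM against 4.2, 4.72 and 3.43 CPM. Such a lack of overlap was found for 11.7% of all tested genes. The log2 difference was 0.62 (SE 0.45, edgeR adjusted p = 0.563). Oas2 had 51, 8 and 9 counts in si mH2A1.2, so that replicate 1 stood above the other libraries of its group. Its ratio of mean CPM to si Ctrl was 3.33, and 1.21 without that replicate. Oas1a likewise had 15, 2 and 0 counts, a ratio of 4.32 (95% counting interval 1.41 to 17.6), and 0.752 (0.068 to 5.25) without replicate 1. Oas1b had 18, 18 and 18 counts, and its log2 difference was 0.38 (SE 0.57). Oas3 had 18, 21 and 15 counts, with a log2 difference of -0.24 (SE 0.78). Oasl1 had 4, 8 and 1 counts and a log2 difference of -0.27 (SE 0.68). Oas1c and Oas1g had at most 3 counts in each library of both groups, so no fold is given.

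Of the genes that act around 2-5A, Pde12 encodes a phosphodiesterase that degrades it, and Abce1 encodes an ATP-binding protein of ribosome recycling. Neither was called in either knockdown by edgeR or by DESeq2, and Pde12 alone had an unadjusted p under 0.05, with si mH2A1.1. Pde12 had 782, 720 and 755 counts in si Ctrl and 1055, 913 and 1035 counts in si mH2A1.1. Its log2 difference was 0.28 (SE 0.12, edgeR adjusted p = 0.144), and the ranges in CPM did not overlap. Abce1 had 7602, 6354 and 7025 counts in si Ctrl and 7401, 6556 and 7379 counts in si mH2A1.1, a log2 difference of -0.11 (SE 0.1). In si mH2A1.2 the log2 differences were 0.08 for Pde12 and 0.0039 for Abce1.

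The rest of the pathway was taken as 4 further lists, nucleic acid sensors, interferons and their receptors, interferon signalling and interferon effectors. Together with the 2-5A list they hold 45 genes, of which 39 were tested. The lists were chosen with earlier results of these data known, so the counts below describe them and are no independent test. With si mH2A1.1, 17 of the 39 rose and 0 fell by edgeR, with a median log2 difference of 1.13 against -0.01 over all tested genes, of which 1.31% were called higher. DESeq2 called 19. This count rests on few libraries, as it was 1, 0 and 0 without si Ctrl replicate 1, 2 or 3, and 4 and 6 without si mH2A1.1 replicate 1 or 3. It was 9 when the si mH2A1.2 libraries were left out of the fit. With si mH2A1.2, 0 of the 39 were called by edgeR or by DESeq2, and 4 had an unadjusted p under 0.05.

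Of the 10 nucleic acid sensors, 6 rose with si mH2A1.1. Zbp1, a sensor of Z-form nucleic acids, was higher by 4.02 on the log2 scale (SE 0.66), Ifih1 (MDA5) and Tlr3, which sense double-stranded RNA, by 2 each, and Ddx58 (RIG-I) by 1.55 (SE 0.23). Of 11 signalling genes 4 rose. Usp18, a feedback inhibitor of the interferon receptor, was higher by 5.63 (SE 0.76), and the transcription factors Irf7 and Irf9 by 3.36 (SE 0.44) and 1.7. Of 10 effectors 7 rose, led by Ifi44 (4.14), Ifit3 (3.93), Isg15 (3.81) and Ifit1 (3.6). Adjusted p-values of the genes named here were between 0.00245 and 0.0084 (edgeR) and do not account for how the lists were chosen.

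The interferon ligands examined, which included Ifna4 alone of the interferon alpha genes, were close to 0 in all libraries. Ifnb1 had 3, 0 and 1 counts in si mH2A1.1 and 0 in the other 6 libraries, and Ifnl2 and Ifnl3 had 0 in all 9. Ifna4 had 1 count in 1 library and Ifng 0 to 6. At this depth a difference in these ligands was not detectable. Of the receptors, 5 were tested and none was called in either knockdown by edgeR or DESeq2, while an unadjusted p under 0.05 was found for 3 with si mH2A1.1 and for 2 in the other knockdown.

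**Figure D4:**
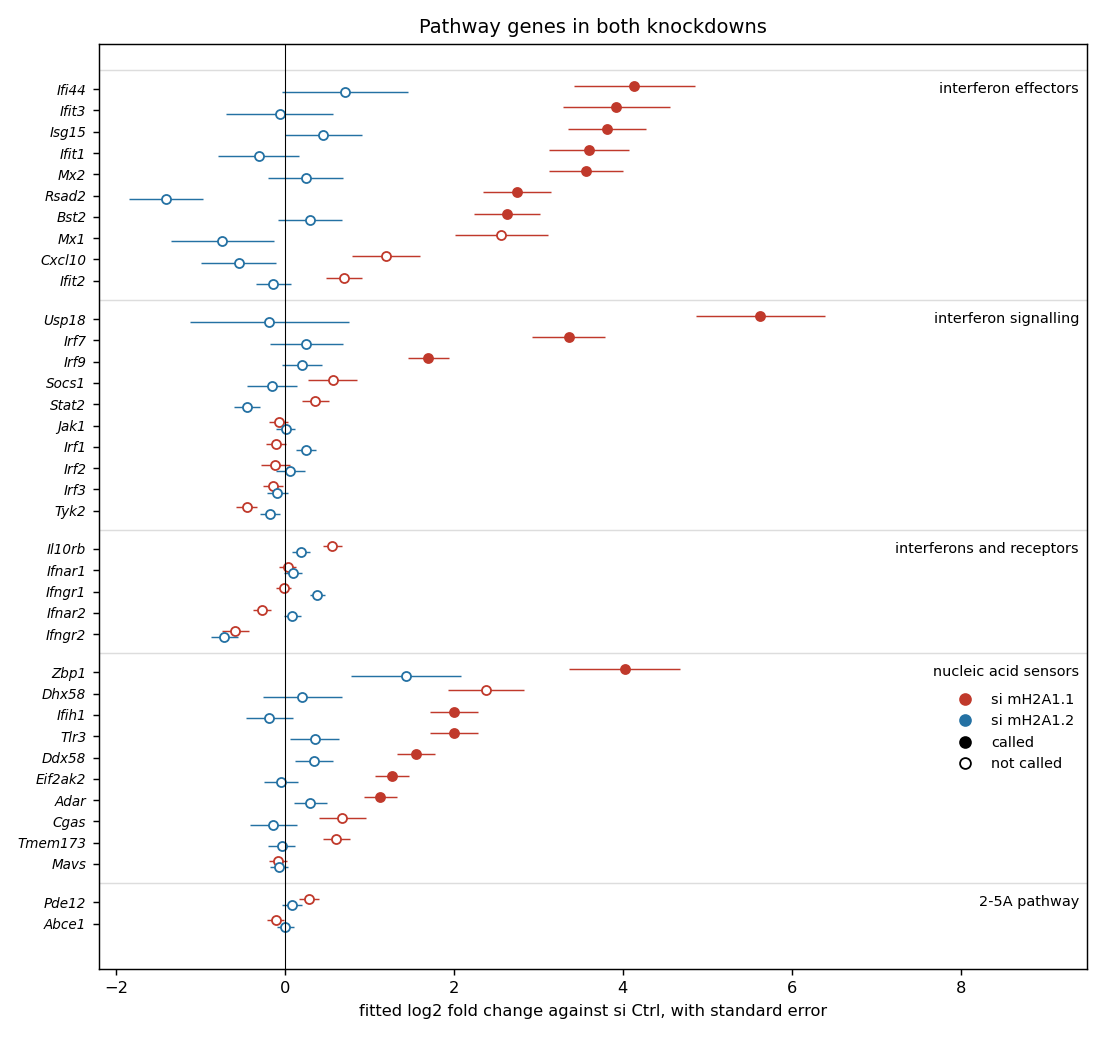
Fitted log2 fold change against si Ctrl, with its standard error, of 37 of the 39 tested pathway genes in both knockdowns, grouped by list. Filled circles passed the edgeR test, as 16 of the drawn genes did with si mH2A1.1, and none of the si mH2A1.2 circles is filled.

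The genes most like the members over the 9 libraries were taken by Pearson's r of log2 CPM, as a description, since the libraries share groups and the members' rise in si mH2A1.1 sets most of r. For Oas3 they were Ifit1, Eif2ak2 and Ifit3, with r from 0.992 to 0.997. For Oas2 they were Mx2, Isg15 and Apol9a, and for Oasl2 Apol9a, Phf11d and Isg15. For Oas1a they were Mx2, Isg15 and Irf9, and for Oas1g B2m, Ifi27l2a and Lilr4b. For Oas1b they were Phf11d, Dtx3l and Ifi44. For Oas1c they were Ifi27l2a, Mmp3 and Arid3b, and for Oasl1 Tmem44 and Fetub, with r of 0.973 to 0.979 for these last 2 members. Oas1c and Oasl1 were also the members with the lowest levels in si mH2A1.1.

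The genes around the family were examined because all members lie at 2 places of 1 chromosome. Within 100 kb of the loci, 24 other annotated genes are in the files, of which 6 were tested. None of the 6 was called with si mH2A1.1 by edgeR or DESeq2, although 3 had an unadjusted p under 0.05. Their log2 differences ran from -0.12 to 0.66. With si mH2A1.2, 0 were called by either tool and 2 had an unadjusted p under 0.05. The untested neighbours had at most 31 counts in any library. The only tested neighbour of the Oas1, Oas2 and Oas3 cluster had 6 to 17 counts, so these results bear mainly on the Oasl1 and Oasl2 pair.

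Markers of other cell types were given beside the members, and their part in the result was not tested. Of 8 immune cell markers 2 were tested, and Cd68, a lysosomal protein of macrophages, rose with si mH2A1.1 by 1.62 on the log2 scale (SE 0.25, edgeR adjusted p = 0.00565). Its counts were 428, 232 and 483 in si mH2A1.1 and 102, 136 and 100 in si Ctrl. The summed CPM of the 8 markers was 3.94 to 5.09 in si Ctrl, 7.16 to 12.8 in si mH2A1.1 and 4.2 to 4.46 in si mH2A1.2. Cd68 made up most of this rise, with means of 2.98 CPM in si Ctrl and 9.14 CPM in si mH2A1.1. In the same groups Csf1r had means of 0.193 and 0.192 CPM, and Itgam, the other tested marker, 1.08 and 1.15 CPM. Adgre1 and Cd3e, which define macrophages and T cells, were at 0 in all si mH2A1.1 libraries, and Ptprc, the pan-leukocyte marker, had 6, 9 and 4 counts there against 1, 8 and 3 in si Ctrl. The 4 endothelial markers summed to 1.12 to 1.75 CPM in si Ctrl, 2.03 to 2.99 CPM in si mH2A1.1 and 1.02 to 1.9 CPM in si mH2A1.2. They did not move together. From si Ctrl to si mH2A1.1, the mean of Tek went from 0.359 to 1.3 CPM and that of Cdh5 from 0.21 to 0.515 CPM. Pecam1 fell from 0.861 to 0.587 CPM and Kdr from 0.106 to 0.0642 CPM. None of the 3 tested was called by edgeR, while 2 had an unadjusted p under 0.05 and DESeq2 called 1 with si mH2A1.1.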

How the data were processed

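Messenger RNA of 9 C2C12 samples was sequenced as single 50-bp reads. The authors ran Salmon on mouse GRCm38 (mm10) to estimate reads per gene, which were imported into DESeq2. The deposited table holds expected counts, as whole numbers without normalization. A second deposited table holds a normalized signal, these counts divided by 1 size factor per sample, and was used to check the first. Groups and replicate numbers came from the labels, with 3 independent replicates per group. The 8 members and all lists were chosen with earlier results of these data known.

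Gene names and lengths came from GENCODE M21, which held 52762 of 52780 genes. Counts were fitted with the quasi-likelihood test of edgeR 4.0.16 (legacy form, TMM, filterByExpr, all 9 samples, 1 coefficient per group) over 19545 genes. Genes were called at a Benjamini-Hochberg adjusted p under 0.01 with a difference of 0.8 or more on the log2 scale in either direction. CPM used TMM-scaled library sizes. Likeness used log2 CPM with a prior count of 2. Scripts were tested on simulated data. Alternatives were another scaling, no or a stricter filter on low counts, DESeq2, a replicate block, the samples of 1 comparison, an adjusted p of 0.05, each library left out, summed Oas1 genes and, chosen after seeing the data, the newer form of the edgeR fit. Same-numbered si Ctrl and si mH2A1.2 samples deviated together (r = 0.331, 0.291 and 0.196), by which their numbers pair them. The labels state no pairing.

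Named were all members, the other Oas1 genes, Pde12 and Abce1, per other list at most 4 called genes with the largest change, and per member the 3 most alike genes. A few genes that this rule names are not reported here. Other markers, ligands, overlapping genes and H2afy were named as checks. Intervals and floors cover counting error only.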

Additional observations from a re-analysis of the deposited data

How the results depend on the processing

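The log2 differences of Oas1b, Oas2, Oas3, Oasl1 and Oasl2, the members compared between settings, kept their sign under every alternative that gave a value, except Oasl1 with si mH2A1.2, whose -0.27 became 0.14 without si Ctrl replicate 2 and 0.18 without si mH2A1.2 replicate 3, and ranged from -1.02 to 0.18 over the libraries left out in turn. With si mH2A1.2, 0 members and 0 pathway genes were called under every alternative. Members at least 0.8 log2 higher with si mH2A1.1 numbered 8, and 3 of 3 tested with at least 10 counts in every sample and 5 of 5 with the Oas1 genes summed, since fewer features were then tested.

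Pathway genes called with si mH2A1.1 numbered 17, 9 with only the samples of the comparison, and 0 to 18 over the libraries left out in turn. All genes called numbered 352 for the first knockdown, si mH2A1.1, and 35 for the second. These became 800 and 252 without a filter on low counts, 995 and 368 with DESeq2, 195 and 4 with only the samples of the comparison, and 1146 and 293 at an adjusted p of 0.05. With the replicate block they became 795 and 116 for all genes, with 18 pathway genes (si mH2A1.1) and 0 members (si mH2A1.2) called. Leaving out each library gave 32 to 546 and 0 to 31. The cause was not tested. Same-numbered si Ctrl and si mH2A1.1 samples correlated weakly, with r of 0.0841 to 0.0976, against -0.0739 to -0.0213 for unlike numbers. For si mH2A1.1 and si mH2A1.2 these values were 0.0917 to 0.116 and -0.0961 to -0.0122. Whether all groups are paired by number was not settled. Depth limits Oas1a, Oas1c and Oas1g, which were at or under 3 counts in si Ctrl.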
